A study of Mus musculus with 8 samples.

Results

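The genes of oxidative phosphorylation were followed under 2 inhibitors of bromodomains in mouse embryonic stem cells (ESCs) whose JUN transgene is turned on by doxycycline (JUN TetON). Members were chosen by name alone. They are the genes named Nduf, Uqcr, Cox4 to Cox8, Atp5 or Sdha to Sdhd in the nucleus and mt-Nd, mt-Cytb, mt-Co or mt-Atp in the mitochondrial genome. Of 113 matching names, 7 pseudogene names and 7 genes with a mean under 5 were left out, which gave 99 members among the 50600 gene names of the table and the 10222 with a mean of at least 5. Of the 99, 86 are nuclear and 13 mitochondrial. They fall into complexes I (44 nuclear and 7 mitochondrial), II (4 nuclear), III (8 and 1), IV (14 and 3) and V (16 and 2). Atp5sl, among the 16, is counted with complex V for its name and not as a subunit. RefSeq lists that gene under the symbol Dmac2.

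Poly-A selected RNA was sequenced from 4 groups of 2 libraries each. All groups were OG2 cells carrying the c-Jun_TetOn construct, of mixed 129SVJ, C57B6 and CBA background, at passage 12, kept feeder free in 2i/LIF and given doxycycline at 2 μg/ml. They differed in the compound: DMSO (the solvent), PFI-3 (which binds the bromodomains of BRG1 and related BAF ATPases), BI-9564 (which binds the bromodomains of BRD9 and BRD7) or both together (P+B). The labels give 6 h for every group, for doxycycline and compound alike, whereas a legend in the study's supplement gives a longer time for JUN induction than for the compounds, so the induction time is not settled here. No group without JUN induction was analysed here, so JUN induction is common to all 4 groups. The values are TPM (a share of all transcripts, corrected for transcript length) written as whole numbers. Each library held 10285 to 10451 genes at 5 TPM or more, and the depth is unknown because TPM keeps no read number. All 8 embryonic stem cell markers examined had a mean of at least 5, and their levels were not the same in all groups. Pou5f1, which encodes OCT4, lay between 1104 and 1333 TPM, but Tdgf1, a coreceptor of NODAL, was at 163 and 156 TPM in DMSO and 82 and 84 in P+B (log2 difference -0.93, limma adjusted p = 0.00916). Klf4 and Esrrb, transcription factors of the naive state, were higher with P+B by 0.52 and 0.74 when the replicate number was fitted as a block (adjusted p = 0.0331 and 0.00486, against 0.189 and 0.12 without it). Of 16 markers of other cell types only Pecam1, which ESCs also express, had a mean of at least 5, and it fell from 53 and 53 TPM in DMSO to 25 and 25 in P+B (-1.05, adjusted p = 0.00282). The part of these shifts in the results below was not tested.

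Oxidative phosphorylation is the route by which mitochondria make ATP. Complexes I and II pass electrons from NADH and succinate to ubiquinone, complex III passes them on to cytochrome c, and complex IV hands them to oxygen. Complexes I, III and IV pump protons, and complex V, the ATP synthase, uses the proton gradient to make ATP. Most subunits are made from nuclear genes, while a small core of complexes I, III, IV and V is made from mitochondrial DNA by a separate polymerase and separate ribosomes. Complex II is wholly nuclear. ESCs are known to draw heavily on glycolysis, although they hold a working respiratory chain.

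Several members have copies elsewhere in the genome whose transcripts are nearly the same sequence, so the reads of a member can be assigned to its copy. In the GENCODE M21 transcripts on GRCm38, 34 of the 99 members had a copy with at least 95% identity over at least 100 bases, and for 10 of them a copy had a mean of at least 5 in the table. The pairs below are shown because the values of the member moved against those of its copy between the libraries of most groups. In PFI-3, mt-Nd3 and Atp5g2 instead fell from library 1 to library 2 together with their copies. The end of mt-Co2 (subunit 2 of complex IV, chrM:7637-7696, plus strand) and the same stretch of its nuclear copy Gm28661 (chr1:24614885-24614941, minus strand) follow, with the bases past the end of the copy in capitals.
mt-Co2: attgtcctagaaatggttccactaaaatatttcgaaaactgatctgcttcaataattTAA
Gm28661: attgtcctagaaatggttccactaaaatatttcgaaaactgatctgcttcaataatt
The start of mt-Nd3 (a membrane subunit of complex I, chrM:9459-9518, plus strand) and of Gm28438 (chr1:24613060-24613119, minus strand) differ by the base in capitals.
mt-Nd3: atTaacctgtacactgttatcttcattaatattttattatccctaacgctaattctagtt
Gm28438: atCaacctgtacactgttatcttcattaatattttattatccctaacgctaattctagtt
The start of the coding part of Atp5g2 (a gene for the c-ring of ATP synthase, in 2 exon pieces within chr15:102665835-102667749, minus strand) and of its processed copy Gm10175 (chr7:23947173-23947232, minus strand) have no base that differs.
Atp5g2: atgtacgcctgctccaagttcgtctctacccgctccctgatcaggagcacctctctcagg
Gm10175: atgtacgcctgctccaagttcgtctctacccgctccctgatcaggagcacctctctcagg

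The copies set how mt-Co2 and Atp5g2 can be read. mt-Co2 was at 3945 and 7269 TPM in DMSO, 6397 and 5900 in PFI-3, 5347 and 4402 in BI-9564, and 4014 and 8618 in P+B. Gm28661, which is 100% identical to it over 681 bases, was at 7247 and 4503, 5401 and 6142, 6002 and 7717, and 7717 and 3694 in the same libraries. Where one was high, the other was low, and their sum ran only from 11192 to 12312. The SD between libraries of a group was 0.51 in log2(TPM + 1) for mt-Co2 alone, the largest of any member, and 0.05 for the sum. Atp5g2 lay between 35 and 84 TPM and Gm10175, 100% identical over 645 bases, between 528 and 598, so that the copies held 90.2% of the sum of Atp5g2 and its copies. The SD of Atp5g2 fell from 0.40 alone to 0.04 with the copies added, and its log2 difference between P+B and DMSO moved from -0.67 ± 0.29 (SE) to -0.02 ± 0.06. The level of either gene alone was therefore not separable from that of its copy.

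For mt-Nd3 the copy held 22.4% of the sum, and the SD was 0.24 alone and 0.15 with the copy. mt-Co1 (subunit 1 of complex IV) shares 483 bases at 99.8% identity with Gm29216, which lay between 4498 and 5305 TPM beside 14886 to 17259 for mt-Co1. Those 2 transcripts differ in length, so no sum was formed. For mt-Atp6, mt-Co3 and mt-Nd4l the copies held at most 1.26% of the sum in means over the 8 libraries, but single libraries held more. Gm10925, the copy of mt-Atp6, ran from 0 TPM in P+B library 2 to 719 in PFI-3 library 2, where mt-Atp6 was at 13309. Gm28437, the copy of mt-Co3, was at 159 TPM in PFI-3 library 1, where mt-Co3 was at 6072.

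**Figure D1:**
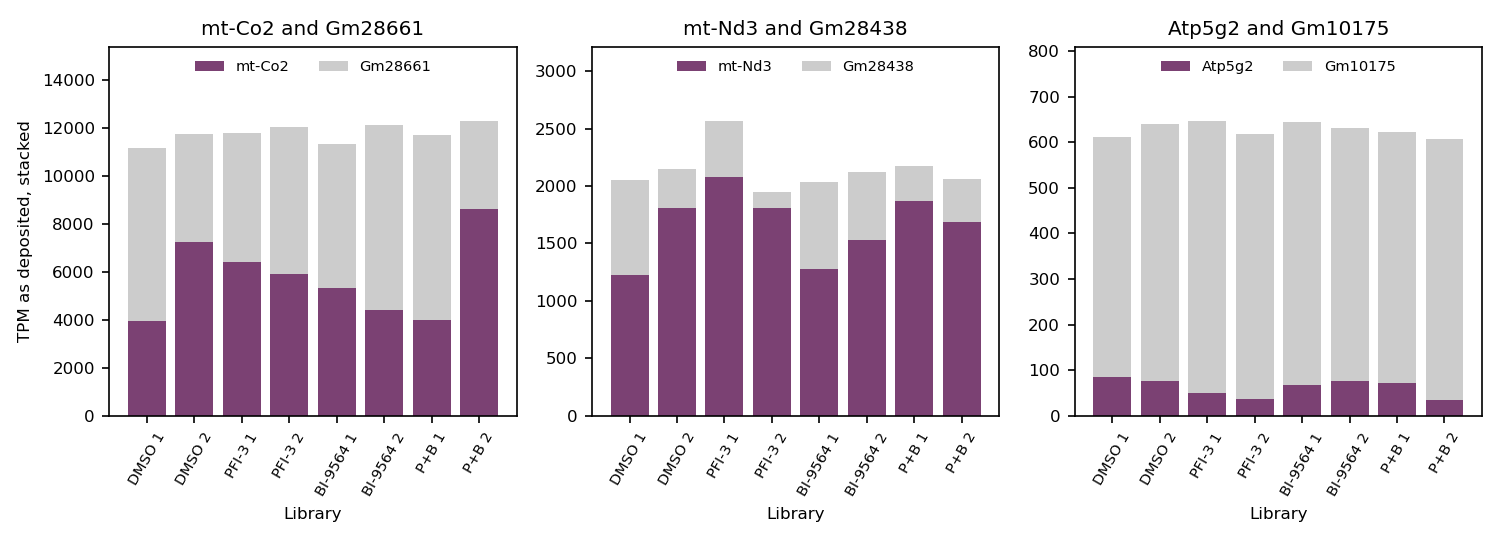
TPM as deposited, stacked, for mt-Co2, mt-Nd3 and Atp5g2 (purple) and the near-identical copy of each (grey) in the 8 libraries. The purple part of mt-Co2 runs from 3945 to 8618 while the whole bar runs from 11192 to 12312, and the grey part holds most of the bar for Atp5g2.

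Transcripts of the mitochondrial genome were far more abundant than those of the nuclear members. The 13 mitochondrial members had mean levels from 1576 TPM (mt-Nd6, the only one of them made from the light strand) to 16087 TPM (mt-Co1), with a median of 5737. The 86 nuclear members ran from 10.4 TPM (Ndufaf3, an assembly factor of complex I) to 1839 TPM (Atp5b, the catalytic beta subunit of ATP synthase), with a median of 137. The least abundant mitochondrial member thus lay below 1 nuclear member only, Atp5b. Together the mitochondrial members took 7.39% to 9.35% of all TPM in a library and the nuclear members 1.83% to 1.95%. In the same poly-A selected libraries, the mt-tRNA genes were listed at 0 throughout and the 2 mitochondrial rRNA genes took 0.04% to 0.06% of TPM.

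Within the nuclear members, level differed by role. The 8 assembly factors of complex I named Ndufaf, which help to build it and are not part of it, had a median of 19.4 TPM. The 12 core subunits of complexes I, II and III had a median of 123 TPM. The 47 accessory subunits had a median of 152 TPM and the 5 subunits of the F1 head of ATP synthase one of 371 TPM. By complex, the nuclear medians were 89.3 TPM for complex I, 138 for complex II, 273 for complex III, 331 for complex IV and 319 for complex V. The median of complex I includes these 8 assembly factors, and that of complex V includes Atp5sl, which is not counted as a subunit, so these sets are unlike. Complex II was the most even, since its 4 genes lay within 1.72-fold of each other, from Sdhc (a membrane anchor) at 99.1 to Sdhd (the other anchor) at 170 TPM. Cox4i1, the common form of subunit 4 of complex IV, led that complex among nuclear genes at 1011 TPM.

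For 2 subunits of complex IV with forms encoded by separate genes, the common form was the abundant one. Cox7a2 was at 142 TPM and Cox7a1, the form of heart and skeletal muscle, at 19.9 TPM. Cox6b1 was at 383 TPM and Cox6b2, known from testis, at 67.0 TPM. Both pairs differed in the same direction in all 8 libraries. Of the 3 genes that encode the same c-ring protein, Atp5g1 was at 556 TPM and Atp5g3 at 525 TPM, and these genes changed order between libraries. Atp5g2 was at 61.9 TPM as deposited and at 628 TPM with its copies added, so its place beside the other two cannot be told.

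**Figure D2:**
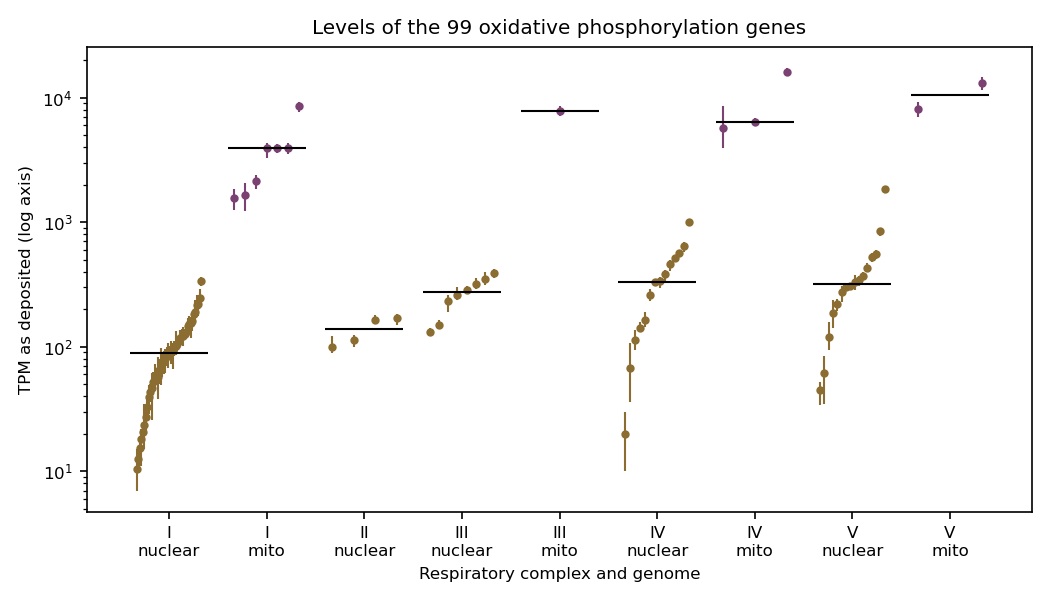
Level of each of the 99 members in TPM on a log axis, by complex and genome; points are means over 8 libraries, vertical lines run from the lowest to the highest library, and black bars are medians of the members. Mitochondrial members (purple) run from 1576 to 16087 TPM and nuclear members (brown) from 10.4 to 1839 TPM.

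The first question was whether blocking both sets of bromodomains moved the respiratory chain. With P+B against DMSO, none of the 99 members passed limma's test at an adjusted p under 0.05 with a fold of at least 1.5, and none passed without the fold, whereas 409 of 10222 genes (4.0%) did pass with it. At an unadjusted p under 0.05 there were 11 members, 10 higher and 1 lower, or 11.1% of them, beside 22.6% of all tested genes. The interval of the difference is informative here. For 75 members (75.8%) the 95% interval lay wholly within a 1.5-fold change either way, beside 40.1% of all tested genes. The margin on either side of the difference had a median of 0.25 in log2 for the members and 0.41 for all tested genes. Median levels differed too, at 137 TPM for the nuclear members and 30.1 TPM for all tested genes, so the shares compare genes of unlike level. For the other 24 members a 1.5-fold change was not excluded by the interval. Of those 24, 20 had a mean below the nuclear median of 137 TPM, and the remainder included mt-Co2 and mt-Nd3.

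The small differences leaned upward. With P+B, 74 of 99 members (74.7%) were above 0 in log2 fold change, beside 58.0% of all tested genes. The count was 53 when each library was centred on its median and 81 under quantile normalization. The median was 0.09 for the nuclear members, 0.17 for the mitochondrial members and 0.06 for all tested genes. Centring brought the nuclear median to -0.001 and the median of all tested genes to -0.03. In 31 members both P+B libraries lay above both DMSO libraries, and in 6 both lay below, where 28.6% and 18.9% of all tested genes did so. By complex, the nuclear median was 0.14 for complex I (33 of 44 above 0), 0.06 for complex II (3 of 4), 0.05 for complex III (6 of 8), 0.11 for complex IV (12 of 14) and 0.00 for complex V (8 of 16). The 8 assembly factors named Ndufaf were split evenly, with 4 above and 4 below 0.

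Summed over its 44 nuclear genes, complex I was at 3970 and 4365 TPM in DMSO, 4336 and 4368 in PFI-3, 4343 and 4478 in BI-9564, and 4447 and 4732 in P+B. The P+B libraries were the highest of their own number, and the DMSO library numbered 1 was the lowest of all. Summed over its 16 nuclear genes, complex V was at 6695 and 6809 in DMSO, 6619 and 6779 in PFI-3, 6795 and 7006 in BI-9564, and 6678 and 6697 in P+B, so the DMSO libraries overlapped with those of every compound group.

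**Figure D3:**
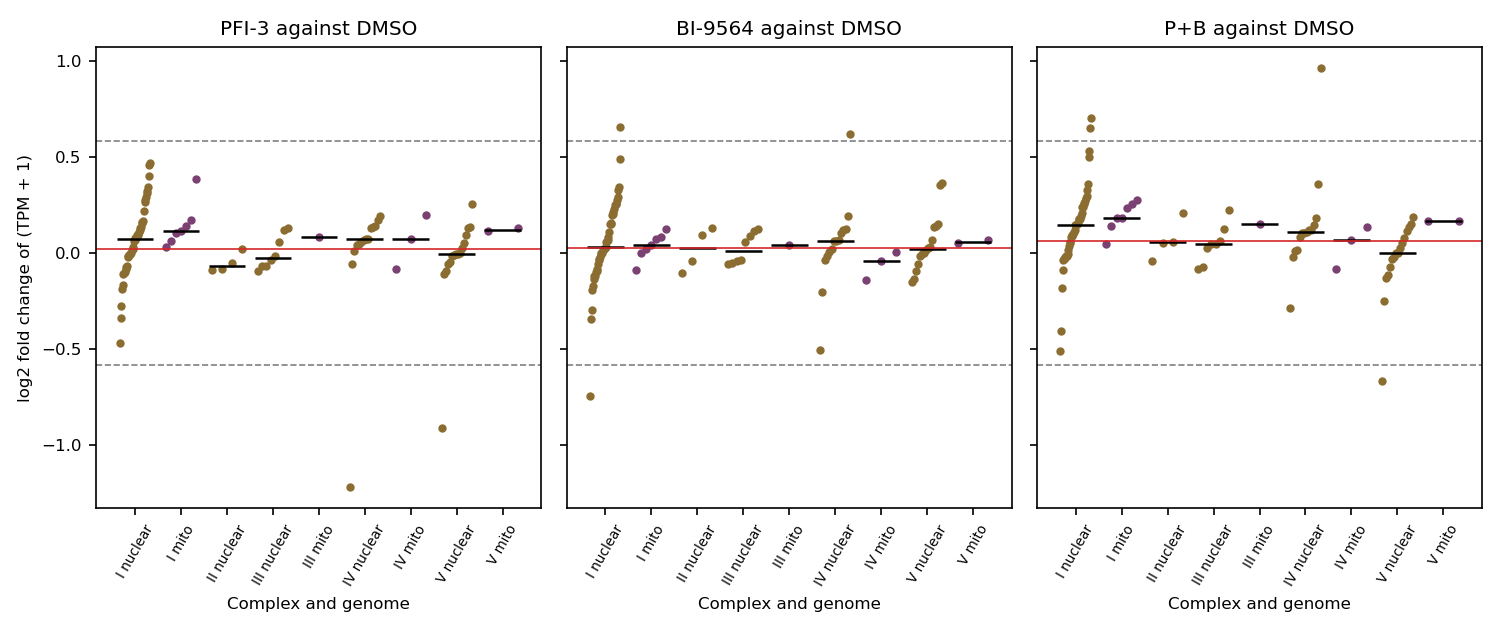
log2 fold change of (TPM + 1) of each of the 99 members against DMSO, by complex and genome, in 1 panel for each compound group. Black bars are medians of the members, the red line is the median of all 10222 tested genes and dashed lines mark a 1.5-fold change. Nearly all points lie between the dashed lines, and no member passed the adjusted test in any panel.

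Among the mitochondrial transcripts, mt-Co3 (subunit 3 of complex IV) was the only 1 of 13 with a lower mean under P+B. mt-Nd4, a proton-pumping subunit of complex I, was at 3501 and 3843 TPM in DMSO, 4140 and 4125 in PFI-3, 3760 and 3793 in BI-9564, and 3972 and 4355 in P+B. mt-Cytb, the cytochrome b of complex III, was at 7097 and 7821 in DMSO, 7625 and 8191 in PFI-3, 7300 and 8058 in BI-9564, and 7927 and 8615 in P+B. For both genes the P+B libraries lay above the DMSO libraries, and the margin was small beside the gap between the libraries numbered 1 and 2 within DMSO and within P+B. The same separation was seen for mt-Nd2, mt-Nd4l, mt-Nd5 and mt-Nd6, which makes 6 of 13 where 28.6% of all tested genes were separated in this direction.

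The log2 difference between P+B and DMSO was 0.18 ± 0.07 (SE) for mt-Nd4 (adjusted p = 0.159) and 0.15 ± 0.08 for mt-Cytb (adjusted p = 0.298). mt-Nd5 differed by 0.18 ± 0.08 (adjusted p = 0.226) and mt-Atp8, a small subunit of ATP synthase, by 0.17 ± 0.11 (adjusted p = 0.417). When the replicate number was fitted as a block, these 4 genes passed without a fold threshold, with adjusted p = 0.0425 for mt-Nd4, 0.0159 for mt-Cytb, 0.0496 for mt-Nd5 and 0.0305 for mt-Atp8. With that block and no fold threshold 7 of 99 members passed, 6 higher and 1 lower, beside 11.6% of all tested genes. None of the 7 reached a 1.5-fold change, while 7.02% of all tested genes passed with the block and that fold. The other mitochondrial members differed by 0.27 ± 0.12 (mt-Nd6), 0.25 ± 0.17 (mt-Nd3), 0.23 ± 0.10 (mt-Nd4l), 0.14 ± 0.06 (mt-Nd2), 0.17 ± 0.09 (mt-Atp6), 0.14 ± 0.36 (mt-Co2), 0.07 ± 0.07 (mt-Co1), 0.05 ± 0.10 (mt-Nd1) and -0.08 ± 0.06 (mt-Co3). Their adjusted p-values ran from 0.206 to 0.858 without the block, and with it from 0.0611 to 0.808.

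The libraries numbered 2 stood above those numbered 1 for the mitochondrial transcripts. Their share of TPM was 7.39% and 8.72% in DMSO, 8.49% and 8.59% in PFI-3, 7.88% and 8.29% in BI-9564, and 8.14% and 9.35% in P+B. In 6 of 13 mitochondrial members (46.2%) library 2 was above library 1 in all 4 groups, beside 15.1% of nuclear members and 11.1% of all tested genes. Within same-numbered libraries, the median difference of the mitochondrial members between P+B and DMSO was 0.18 for number 1 and 0.14 for number 2. Without the DMSO library numbered 1, the lowest of the 8, the median of the mitochondrial members fell from 0.17 to 0.07 and that of the nuclear members from 0.09 to 0.03. Without the DMSO library numbered 2 the mitochondrial median was 0.26. With the near-identical copies of like length added, which takes out the exchange between mt-Co2 and Gm28661, the mitochondrial share was 8.21% and 9.23% in DMSO, 9.11% and 9.30% in PFI-3, 8.57% and 9.13% in BI-9564, and 8.98% and 9.77% in P+B. Library 2 was still the higher in each group, by a smaller gap in DMSO and P+B and a larger gap in PFI-3 and BI-9564. What the numbers stand for is not given in the labels.

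**Figure D4:**
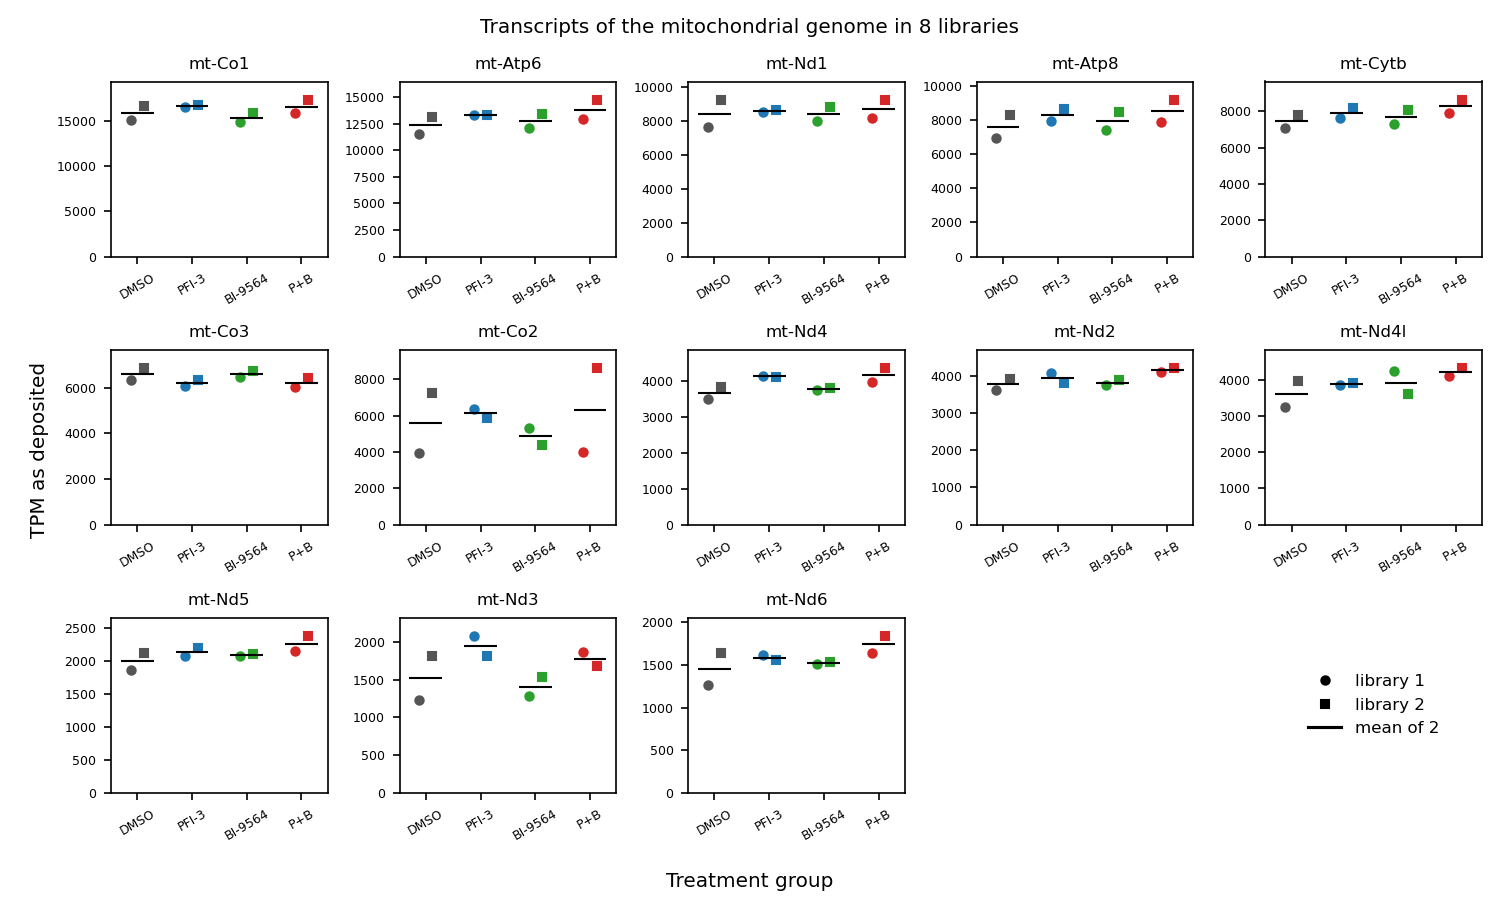
TPM as deposited of the 13 mitochondrial transcripts in the 4 groups, each axis starting at 0; circles are libraries numbered 1, squares those numbered 2 and bars the mean of the 2. mt-Nd4 lies between 3501 and 4355 TPM, while mt-Co2, which has a copy of the same sequence, runs from 3945 to 8618.

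Of the nuclear members of complex I, Ndufa13 (an accessory subunit, also known as GRIM-19) had the smallest p with P+B. It was at 54 and 50 TPM in DMSO, 65 and 73 in PFI-3, 60 and 73 in BI-9564, and 69 and 79 in P+B, so that every compound library lay above both DMSO libraries. The log2 difference was 0.50 ± 0.13 with P+B (adjusted p = 0.0757, and 0.0304 with the replicate block), 0.40 with PFI-3 (adjusted p = 0.611) and 0.34 with BI-9564 (adjusted p = 0.296). Ndufa13 shares 375 exon bases with Tssk6 on the other strand, at a mean of 13.6 TPM, and whether the counting used strand is not given in the sources used here. Ndufs8, a core subunit that carries iron-sulfur clusters, was at 74 and 60 TPM in DMSO and 93 and 79 in P+B, a log2 difference of 0.36 ± 0.17 (adjusted p = 0.247, and 0.0314 with the block). In both pairs of same-numbered libraries it was higher with P+B.

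Ndufc1 and Ndufaf8 had the largest log2 differences of complex I with P+B. Ndufc1, an accessory subunit, was at 46 and 38 TPM in DMSO, 68 and 50 in PFI-3, 53 and 66 in BI-9564, and 83 and 57 in P+B (0.71 ± 0.22, adjusted p = 0.11). Ndufaf8, an assembly factor, was at 18 and 15 in DMSO, 25 and 21 in PFI-3, 20 and 35 in BI-9564, and 24 and 29 in P+B (0.65 ± 0.26, adjusted p = 0.182). In both genes every compound library lay above both DMSO libraries. At the other end were the assembly factors Ndufaf3, with -0.51 ± 0.25 (adjusted p = 0.277), and Ndufaf6, with -0.40 ± 0.26 (adjusted p = 0.391). Ndufaf3 was at 15 and 13 TPM in DMSO and at 7 to 12 TPM in the compound libraries, close to the limit of what whole numbers resolve.

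In complex IV, Cox6b2 and Cox7a2l had an unadjusted p under 0.05 with P+B, and only Cox6b2 is a tissue form. Cox7a2l was at 105 and 95 TPM in DMSO and 122 and 135 in P+B. Its log2 difference was 0.36 ± 0.11 (adjusted p = 0.1). Gm6969, a near copy of Cox7a2l, was at 184 and 193 TPM in DMSO, 157 and 157 in PFI-3, 141 and 143 in BI-9564, and 167 and 176 in P+B. Cox7a2l was at 116 and 104 in PFI-3 and 120 and 109 in BI-9564. In each compound group the mean of Cox7a2l was thus above that in DMSO and the mean of Gm6969 below it. The 2 transcripts differ in length, so no sum was formed, and an exchange of reads between them was not tested. Cox6b2 was at 36 and 61 TPM in DMSO, 61 and 46 in PFI-3, 70 and 75 in BI-9564, and 108 and 79 in P+B. Its log2 difference between P+B and DMSO, 0.96 ± 0.26, was the largest of any member (adjusted p = 0.0706, and 0.0542 with the block), and it ranged from 0.59 to 1.34 when single libraries were left out. Cox7a1 was at 30 and 24 TPM in DMSO, 10 and 12 in PFI-3, 23 and 15 in BI-9564, and 28 and 17 in P+B. The PFI-3 libraries were thus the lowest of the 8, with a log2 difference of -1.22 ± 0.28 from DMSO (adjusted p = 0.506, and 0.157 with the block). The common forms were closer to 0 with P+B: Cox7a2 differed by 0.10 ± 0.09 (adjusted p = 0.547).

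In complex V, Atp5h, a subunit of the peripheral stalk, was at 308 and 277 TPM in DMSO, 291 and 271 in PFI-3, 279 and 269 in BI-9564, and 265 and 228 in P+B. It differed by -0.25 ± 0.10 between P+B and DMSO (adjusted p = 0.185, and 0.0426 with the block), and the P+B libraries lay below both DMSO libraries. Of the c-ring genes, Atp5g1 differed by -0.13 ± 0.08 (adjusted p = 0.357) and Atp5g3 by 0.11 ± 0.07 (adjusted p = 0.391). Atp5b had the smallest SD between libraries of a group of any member, 0.02 in log2, with 1873 and 1818 TPM in DMSO, 1837 and 1807 in PFI-3, 1899 and 1871 in BI-9564, and 1822 and 1783 in P+B.

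**Figure D5:**
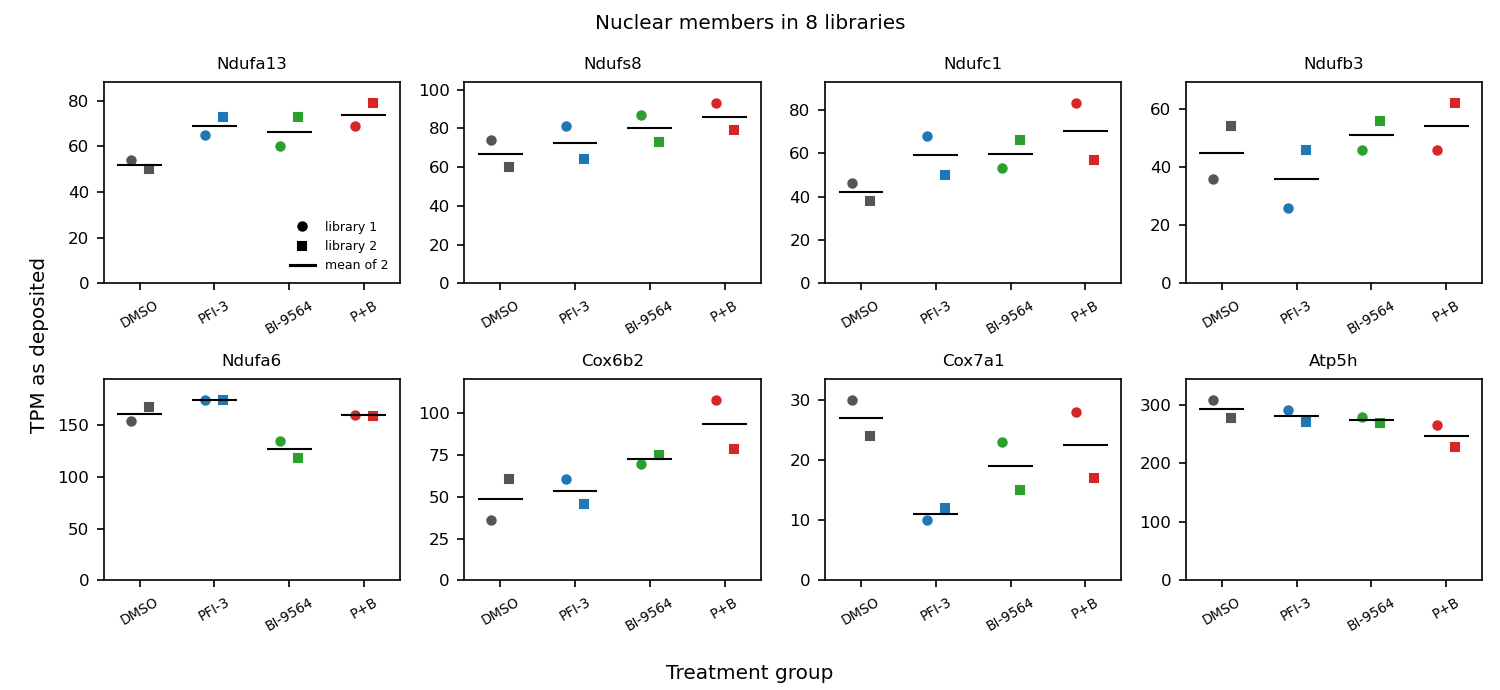
TPM as deposited of 8 nuclear members in the 4 groups, each axis starting at 0; circles are libraries numbered 1, squares those numbered 2 and bars the mean of the 2. All P+B libraries of Ndufa13 and Ndufc1 lie above both DMSO libraries, and Cox7a1 is lowest in the PFI-3 libraries, at 10 and 12 TPM.

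Each compound alone was then set against DMSO. With PFI-3, limma called no member, as it called 0% of all tested genes, and 5 members had an unadjusted p under 0.05 (3 higher and 2 lower), or 5.05% of them beside 6.79% of all tested genes. With BI-9564 no member was called beside 0.108% of all tested genes, and 8 members (5 higher and 3 lower) had an unadjusted p under 0.05, or 8.08% beside 14.9%. The nuclear median was 0.04 under PFI-3 and 0.03 under BI-9564, and the mitochondrial median was 0.11 and 0.04. The 95% interval lay within a 1.5-fold change either way for 78 members with PFI-3, beside 51.4% of all tested genes, and for 75 with BI-9564, beside 45.1%. These shares again compare genes of unlike level.

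With PFI-3, 22 members lay above both DMSO libraries and 11 below, beside 16.5% and 12.8% of all tested genes. With BI-9564, 23 lay above and 8 below, beside 22.9% and 18.3%, and none of the 23 or the 8 was mitochondrial. Beside Ndufa13 and Cox7a1, Ndufv2, a core subunit of complex I chosen after its values were seen, was at 124 and 138 TPM in DMSO and 155 and 171 in PFI-3. Its log2 difference was 0.31 ± 0.09 (adjusted p = 0.594). These comparisons share the DMSO libraries with that of P+B.

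Between the compounds, no member was called without the replicate block either. P+B against PFI-3 called 1.31% of all tested genes and 0 of 99 members, with 6 members at an unadjusted p under 0.05, all higher with P+B, beside 16.6%. P+B against BI-9564 called 0.196% and 0 members, with 2 members at an unadjusted p under 0.05 beside 7.97%. BI-9564 against PFI-3 called 0.108% and 0 members, with 8 members at an unadjusted p under 0.05 beside 14.2%.

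Only single members passed with the replicate block. Ndufa6, an accessory subunit of complex I, was at 174 and 174 TPM in PFI-3 and 135 and 118 in BI-9564, beside 154 and 167 in DMSO and 160 and 159 in P+B. The BI-9564 libraries were the lowest of the 8, and the difference from PFI-3 was -0.46 ± 0.09 (adjusted p = 0.105, and 0.0427 with the block, where 1 member and 2.51% of all tested genes passed without a fold threshold). Ndufb3, an accessory subunit, was at 26 and 46 TPM in PFI-3 and 46 and 62 in P+B, a difference of 0.61 ± 0.29 (adjusted p = 0.34, and 0.0469 with the block). It was called with the block and the 1.5-fold threshold, the 1 member beside 3.43% of all tested genes, and without the threshold it was 1 member beside 5.62%. These groups met at 46 TPM, and Ndufb3 was also at 36 and 54 TPM in the DMSO libraries.

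A test of P+B against the sum of the effects of the single compounds called no member and 0% of all tested genes, with 3 members at an unadjusted p under 0.05 beside 3.26%. The 3 were Cox7a1 (1.44 ± 0.40), Ndufa11 (0.42 ± 0.17) and Ndufb9 (-0.33 ± 0.14), 2 of them accessory subunits of complex I, each with an adjusted p of 1. The median over the members was -0.001.

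Other genes on which the respiratory chain depends were examined as lists. Of 42 tested assembly factors and electron carriers, none was called with P+B, with a median log2 difference of 0.07 (27 above 0), and 9 had an unadjusted p under 0.05. Those above 0 were 64.3% of the list beside 58.0% of all tested genes, and those with an unadjusted p under 0.05 were 21.4% beside 22.6%. Cyc1, the cytochrome c1 of complex III, was at 302 and 337 TPM in DMSO and 304 and 320 in P+B, and Cycs, cytochrome c, at 44 and 48 and at 52 and 51. Cyc1 overlapped between the groups and Cycs did not, with differences of -0.03 (adjusted p = 0.896) and 0.16 (adjusted p = 0.521). With the block, 1 of the 42 was called higher and 1 lower, where 7.02% of all tested genes were called and 11.6% passed without a fold threshold. Etfdh, which feeds electrons from fatty acid oxidation to ubiquinone, was higher (0.59, adjusted p = 0.0396). Taco1, an activator of the translation of mt-Co1, was lower (-0.77, adjusted p = 0.0356).

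The next list, of genes that copy mitochondrial DNA or serve its expression, held no genes for the proteins of mitochondrial ribosomes. Of its 27 tested genes, 1 fell with P+B, with a median over the list of 0.11 (16 above 0). These shares, 3.70% called and 59.3% above 0, were close to the 4.0% and 58.0% of all tested genes. The gene that fell was Fastkd1, of a family of mitochondrial RNA-binding proteins, at 48 and 56 TPM in DMSO, 48 and 47 in PFI-3, 33 and 39 in BI-9564, and 28 and 26 in P+B (-0.92 ± 0.14, adjusted p = 0.0102). Both P+B libraries were below all others. Tfam, which packages mitochondrial DNA and starts its transcription, was at 40 and 54 TPM in DMSO and 63 and 68 in P+B (0.49 ± 0.17, adjusted p = 0.141). Polrmt, the mitochondrial RNA polymerase, was at 38 and 45 in DMSO and 58 and 47 in P+B (0.33 ± 0.21, adjusted p = 0.402). The P+B libraries lay above the DMSO libraries in both genes, as they did in 28.6% of all tested genes. Other genes of the list that serve this transcription had lower means with P+B. Tfb1m differed by -0.36 (adjusted p = 0.347), Tfb2m by -0.26 (adjusted p = 0.488) and Tefm by -0.43 (adjusted p = 0.467).

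Of 9 tested regulators of nuclear respiratory genes, 1 was called with P+B, or 11.1% beside 4.0% of all tested genes, and 2 were called with the block, where 7.02% of all tested genes were. Myc fell from 40 and 32 TPM in DMSO to 16 and 15 in P+B (-1.16 ± 0.15, adjusted p = 0.00546) and was at 25 to 33 TPM with the single compounds. Gabpa, which encodes the DNA-binding part of the factor GABP, was at 101 and 111 TPM in DMSO, 92 and 89 in PFI-3, 98 and 87 in BI-9564, and 76 and 77 in P+B. Its difference of -0.46 ± 0.10 passed the adjusted test (adjusted p = 0.0428) without reaching 1.5-fold, and the P+B libraries were the lowest of the 8. Esrrb, an orphan nuclear receptor, was at 86 and 58 TPM in DMSO, 128 and 110 in PFI-3, 76 and 54 in BI-9564, and 141 and 100 in P+B, and it was the other regulator called with the block. Nrf1 was at 69 and 73 TPM in DMSO and 71 and 86 in P+B (0.14 ± 0.17, adjusted p = 0.676). Ppargc1a and Esrrg, regulators known from tissues with many mitochondria, were listed at 0 in every library.

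Promoters of the nuclear members were searched in the RefSeq table on GRCm38.p6, which gives 250 bases before and 50 after each gene start. Of 86 nuclear members, 74 matched, 72 by symbol and 2 by an older name. The letters GCGCATGCG, known as a site of NRF1, stood on either strand in 13.5% of those members and in 1.95% of all genes of the table, and AAGATGGCG, known for YY1, in 12.2% and 1.64%. CCGGAAGT, a site of ETS factors such as GABP, stood in 6.76% and 4.31%, TCAAGGTCA, a site of ESRRB and ESRRA, in 2.70% and 0.466%, and TGACTCA, a site of AP-1 and so of JUN, in 8.11% and 5.95%. None of these words holds another on either strand. The members had a mean of at least 5, while the 27025 genes of the RefSeq table were not filtered by level, so the shares compare unlike sets. They describe letters in a window, and binding was not measured here. The windows of 3 members described above follow, with the letters in capitals: NRF1 in Atp5g2 (chr15:102671061-102671109, minus strand), AP-1 in Ndufa13 (chr8:69902021-69902063, minus strand) and ETS, read on the other strand, in Atp5h (chr11:115419931-115419978, minus strand).
Atp5g2: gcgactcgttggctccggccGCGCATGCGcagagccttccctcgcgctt
Ndufa13: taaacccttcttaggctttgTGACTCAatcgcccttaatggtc
Atp5h: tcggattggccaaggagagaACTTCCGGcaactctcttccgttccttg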

How the data were processed

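Libraries were made from poly-A selected RNA and sequenced on a NextSeq500. Per the labels, the submitters' processing notes name bcl2fastq, Bowtie2 2.2.5, RSEM 1.3.0 and the mouse build mm10, with no annotation given in the sources used here. The authors deposited 1 score per gene and library, TPM made whole numbers (library sums of 991574 to 991897), so counts, depth and counting error are unknown and count tools, including the DESeq2 of the study's methods, were not run.

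All 8 libraries were fitted together as log2(TPM + 1) with limma 3.58.1 in R 4.3.3 (trend on the mean) over 10222 genes (mean of 5 TPM or more), with 4 residual degrees of freedom, in 7 comparisons. P-values were adjusted by Benjamini-Hochberg over all tested genes. Called means an adjusted p under 0.05 and a fold of at least 1.5, and differences in log2 understate the change of low genes. Values after ± are SE. With 2 against 2 libraries, an exact permutation test cannot go below p = 0.333 and was not used. Nothing says that libraries came from separate cultures, so p-values measure the spread between libraries only.

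Groups share replicate numbers. Library deviations correlated over genes in all 6 pairs of groups (Pearson's r 0.143 to 0.236). The main tests, with their SE and intervals, did not use this pairing. It entered only in an alternative run with the replicate block. Values from that run stand beside results whose call the block changes. Copies were found with BLAST 2.17.0+ against GENCODE M21 (at least 95% identity over 100 bases and 80% of either transcript), and 98 of 99 members were in that annotation. The procedure was tested on simulated data.

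Named are all mitochondrial members, the 3 nuclear members highest and the 3 lowest with P+B, the highest of each complex, genes for forms of 1 subunit, genes of the lists that were called, and Tfam, Polrmt, Nrf1, Gabpa, Cyc1 and Cycs whatever their values. All other genes named with values were chosen after their values were seen, including those that passed only with the block, those listed at 0, Sdhc, Sdhd, Ndufa11, Ndufb9 and Ndufv2. The members and lists were chosen with earlier results of these data known.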

Additional observations from a re-analysis of the deposited data

How the results depend on the processing

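No tested member was called in any of the 7 comparisons under pseudocounts of 0.5 or 5. Nor was any under filters of a mean of at least 1, at least 20 or none. The same held for quantile normalization, median centring, nuclear rows rescaled without mitochondrial rows and limma without a trend. It held too for only the 4 libraries compared, near copies added (chosen after seeing the data), no fold threshold and an adjusted p under 0.01. Leaving out any library gave counts from 0 to 0. The run of only the 4 libraries compared did not include the test against the sum of the single compounds. Nuclear rows rescaled held no mitochondrial members, and the filter of at least 20 left out the members below it. The replicate block alone changed a count, to 1 member for P+B against PFI-3, and with no fold threshold (chosen after seeing the data) to 7 members for P+B against DMSO, 1 for P+B against PFI-3 and 1 for BI-9564 against PFI-3, and it changed no other call of a member. The cause was not tested.

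The median log2 fold change of the nuclear members moved by more than the SD between libraries (0.03) under quantile normalization, to 0.149 with P+B and 0.065 with BI-9564, and under median centring, to -0.001 with P+B, -0.012 with PFI-3 and -0.019 with BI-9564. That of the mitochondrial members with P+B moved to 0.07 and 0.071 under these. Centring moved the median of all tested genes as well, to -0.03 with P+B, -0.029 with PFI-3 and -0.023 with BI-9564. Leaving out single libraries gave 0.034 to 0.104 (P+B), 0.0 to 0.06 (PFI-3) and 0.014 to 0.067 (BI-9564) for the nuclear members, and 0.072 to 0.258, 0.001 to 0.205 and -0.052 to 0.143 for the mitochondrial members. Both extremes of each mitochondrial range came from leaving out a DMSO library. Where an arm was left with 1 library, it was assumed to vary like the others. Depth is unknown, so precision rests on 2 libraries per group.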

Other observations

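Most genes for tissue forms of respiratory subunits were listed at or near 0. Cox6a2, Cox8b and Ndufa4l2 were listed at 0 in all 8 libraries, Cox4i2 at 0 or 1 TPM, and Cox7b2 and Cox8c at 0 to 3 TPM. An exact 0 does not show that a gene is silent here, since Lyrm7, an assembly factor of complex III, was also listed at 0 in all 8 libraries. Atp5s, a factor named for ATP synthase, was at 1 to 8 TPM. Of the 7 pseudogene names left out, none had a mean above 0.25 TPM. The mitochondrial rRNA genes summed to 431 and 523 TPM in DMSO, 480 and 503 in PFI-3, 497 and 489 in BI-9564, and 497 and 557 in P+B.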
